A study of Homo sapiens with 12 samples.

Results

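The MYC, MAX and MXD network was examined in PC3 and VCaP, both established human lines of prostate cancer, after transfection with an siRNA against the forkhead transcription factor FOXA1 (siFOXA1) or with a non-targeting siRNA (NSI). Its 10 members were taken by gene symbol from the 60106 genes of the count tables: MYC, MYCN, MYCL, MAX, MXD1, MXD3, MXD4, MXI1, MNT and MGA. All 10 symbols were found, each in 1 row. The 4 groups held 3 libraries each and were compared within their line. PC3 cells, grown in RPMI-1640, received 20 nM siRNA, and their libraries were made from polyadenylated RNA with a stranded mRNA kit. VCaP cells, grown in DMEM, received 40 nM siRNA, and their libraries were made with a total RNA kit. All RNA was taken at 72 h. The line was confounded with the siRNA dose, the medium, the kit and the use of strand in counting. FOXA1 was left at 62.3% of its NSI level in PC3 and at 16.5% in VCaP, so the depth of the knockdown went with the line too. A difference between the lines cannot be told apart from these. The labels do not say whether the replicates were separate cultures, so p-values measure the spread between these samples, which may be technical.

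MYC, MYCN and MYCL are basic helix-loop-helix leucine zipper proteins that bind E-box DNA as dimers with MAX and mostly activate genes of ribosome production, metabolism and growth. MXD1, MXI1, MXD3, MXD4 and MNT dimerize with the same MAX, bind the same E-boxes and recruit the SIN3 histone deacetylase complex, which lowers transcription. MGA, a large protein with a T-box as well as a MAX-binding domain, belongs to the polycomb-like complex PRC1.6. In prostate cancer MYC is often amplified, and FOXA1 is a pioneer factor that opens chromatin for other transcription factors.

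Levels are given as CPM, the counts of a gene in every 1e6 counts of its library. The libraries held 123140099 to 188226483 counts in PC3 and 48187047 to 59839211 in VCaP. FOXA1, the siRNA target, was left at 62.3% of its NSI level in PC3 (edgeR quasi-likelihood test, log2 fold change −0.68 with SE 0.10, adjusted p 0.0022) and at 16.5% in VCaP (−2.60 with SE 0.09, adjusted p 1.84e-07). The epithelial markers EPCAM, KRT8, KRT18 and CDH1 were present in all libraries. Their sums are given in RPKM, the CPM value divided by the exon length in kilobases. In PC3 the sums were 163 to 207 in NSI and 136 to 154.5 in siFOXA1, without overlap. In VCaP they were 235 to 250.3 in NSI and 224 to 234 in siFOXA1. EPCAM (log2 fold change −0.45), KRT18 (−0.53) and CDH1 (−0.69) were called lower in PC3 and KRT8 (0.39) higher, and 1 of the 4 was called lower in VCaP. KLK3, a defining marker of luminal prostate cells, was at no more than 0.022 CPM in PC3 and at 46.4 to 102 CPM in VCaP, so it was near 0 in PC3 and present in VCaP. Of the immune markers, PTPRC stayed at or below 0.12 CPM and CD3E at or below 0.020 CPM in every library. CD68 was higher with siFOXA1 in PC3 (26.3 to 29.6 CPM in NSI, 43.8 to 49.3 CPM in siFOXA1, log2 fold change 0.70, adjusted p 0.000908) and at or below 0.358 CPM in VCaP. It shares 95.3% of its exon bases with RP11-186B7.4 on the same strand, so its values are uncertain. PTPRC was also called higher in PC3 (2.16, adjusted p 0.0326). The 4 immune markers summed to 14.0 to 15.8 RPKM in PC3 NSI, 23.3 to 26.3 in PC3 siFOXA1, 0.112 to 0.188 in VCaP NSI and 0.147 to 0.231 in VCaP siFOXA1. The 4 fibroblast markers summed to 3.58 to 4.10 RPKM in PC3 NSI, 4.94 to 5.42 in PC3 siFOXA1, 3.01 to 5.01 in VCaP NSI and 0.289 to 0.612 in VCaP siFOXA1, and the part of these markers in the results was not tested. In such bulk RNA, fewer cells of a kind and less RNA per cell cannot be told apart.

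Every member called in PC3 was lower with siFOXA1. MYC, MYCL, MXD3, MXD4 and MXI1 fell, 5 of its 10 members, none rose, and the other 5 were not called, where a call is an edgeR quasi-likelihood adjusted p under 0.05. In the same comparison 27.7% of the 26478 genes tested were called, 13.9% higher and 13.9% lower. The median log2 fold change was −0.46 over the members and −0.01 over all genes tested. Without siFOXA1 replicate 1, and likewise without siFOXA1 replicate 3, 3 members were called (MYC, MYCL and MXI1). Genes called over the whole table numbered 7344, against 3963 without siFOXA1 replicate 1, 4738 without NSI replicate 3 and 11333 with the replicate number as a block, a fit in which 7 members were called lower.

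In VCaP the members moved both ways. MYCL and MXD3 fell, MAX and MGA rose, and the other 5 of the 9 members tested were not called. MYCN was too low to be tested. Here 45.8% of the 22939 genes tested were called, 22.5% higher and 23.3% lower, so the members' 4 of 9 lay near the share of all genes. Their median log2 fold change was −0.02, against 0.02 over all genes.

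The effects of siFOXA1 in the 2 lines were compared directly as an interaction, the VCaP effect minus the PC3 effect, in a fit of all 12 libraries. It was called for MYC, MAX and MXI1, more positive in VCaP, and for MYCL, more negative in VCaP. Over all 30450 genes tested 22.1% were called, 11.1% more positive and 11.1% more negative.

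**Figure D1:**
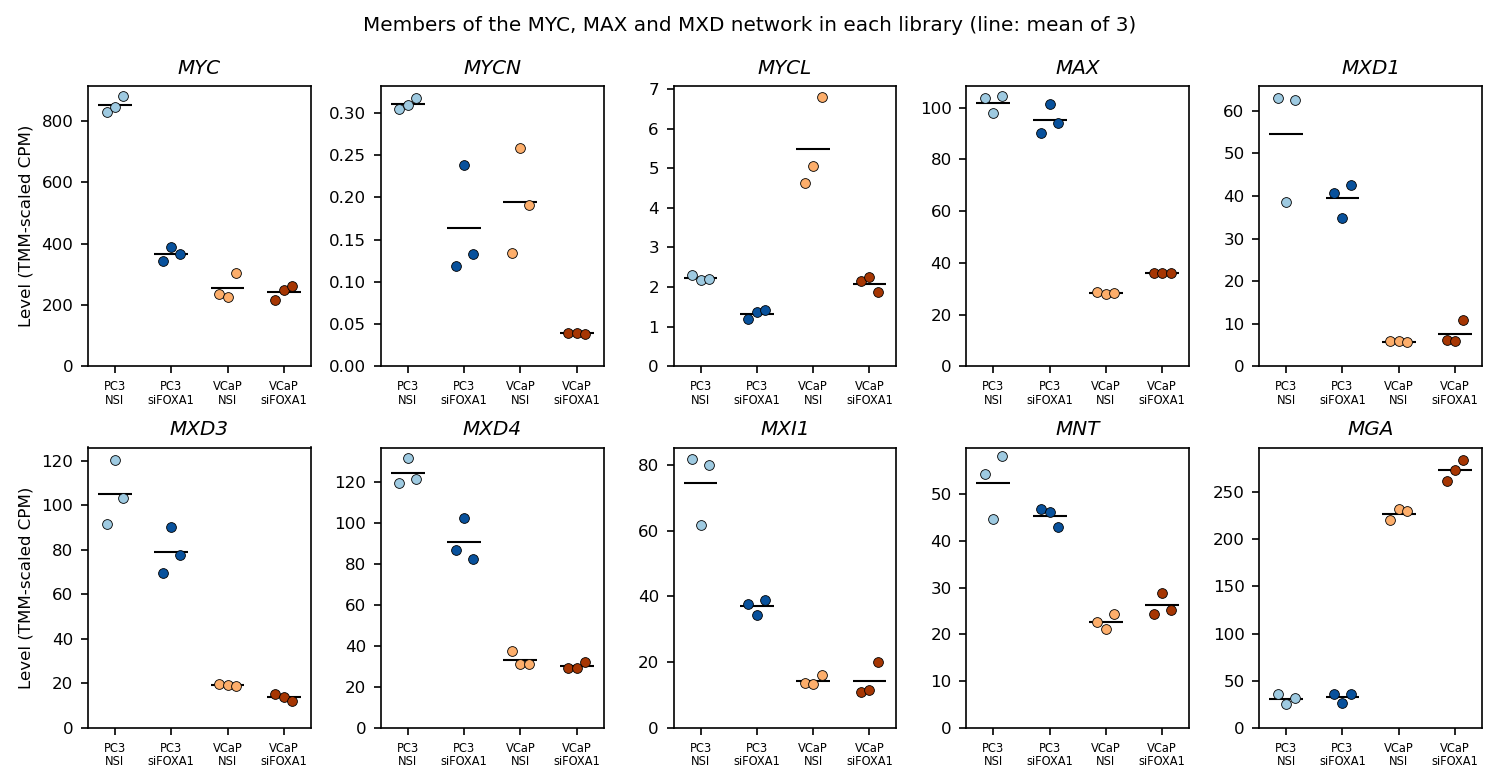
Level of each member in each library, in CPM scaled by TMM factors, with 1 point per library and a line at the mean of 3. Each panel has its own axis from 0. MYC drops between the PC3 groups, from 829 to 879.7 CPM in NSI to 343 to 388 CPM in siFOXA1, and overlaps between the VCaP groups.

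MYC, the main activator of the family in most adult tissues (ENSG00000136997.17_4, chromosome 8, 128747680 to 128753680, plus strand, GRCh37), had the highest RPKM of the members in both lines. In PC3 it was at 829, 844 and 879.7 CPM in the NSI libraries and at 343, 388 and 365 CPM in the siFOXA1 libraries. All siFOXA1 libraries lay far below all NSI libraries. The means were 851 ± 25.8 and 365 ± 22.5 CPM (SD, n = 3 each), and siFOXA1 left 42.9% of the control level (log2 fold change −1.22, SE 0.09, edgeR quasi-likelihood adjusted p 3.42e-05). It kept its call under all 15 alternatives, with values from −1.27 to −1.13.

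In VCaP, MYC was at 235, 227 and 304 CPM in NSI and at 216, 249 and 262 CPM in siFOXA1. The groups overlapped. The log2 fold change was −0.07 with a 95% interval of −0.34 to 0.19 (adjusted p 0.643), and it was 0.07 without NSI replicate 3 (adjusted p 0.601, 0.338 to 0.986 over the alternatives). The interval does not reach the PC3 value. The difference between the lines was 1.13 (SE 0.16, adjusted p 0.000125), and it was called under all 20 alternatives.

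MYCL, first known from small cell lung cancer (ENSG00000116990.10_3, chromosome 1, 40361098 to 40367685, minus strand), was low and fell in both lines. PC3 libraries had 2.31, 2.18 and 2.204 CPM with NSI and 1.19, 1.38 and 1.43 CPM with siFOXA1, with no overlap. The change was −0.74 on the log2 scale (SE 0.14, adjusted p 0.00506). In VCaP it was at 4.62, 5.06 and 6.79 CPM in NSI and at 2.14, 2.25 and 1.87 CPM in siFOXA1, again with no overlap. It fell there to 38.0% of the NSI level (log2 fold change −1.40, SE 0.16, adjusted p 0.000116). Both calls held under all 15 alternatives of their line.

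The fall of MYCL was larger in VCaP, with an interaction of −0.67 (SE 0.23, adjusted p 0.044), but this call was near its threshold. Its adjusted p lay between 0.0152 and 0.124 under the 20 alternatives. The call ended without PC3 NSI replicate 3 (−0.72), without PC3 siFOXA1 replicate 3 (−0.65), without VCaP NSI replicate 2 (−0.74) or 3 (−0.48), and without VCaP siFOXA1 replicate 1 (−0.70), 2 (−0.73) or 3 (−0.60). With no filter on low counts it ended as well (−0.68).

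MYCN, the neuroblastoma relative of MYC (ENSG00000134323.11_2, chromosome 2, 16080686 to 16087129, plus strand), was close to the limit of detection. PC3 libraries were at 0.305, 0.309 and 0.318 CPM in NSI and at 0.119, 0.238 and 0.133 CPM in siFOXA1. The groups did not overlap, but the log2 fold change of −0.95 was not called (SE 0.31, adjusted p 0.0516). It was called with the replicate number as a block (−0.98, adjusted p 0.0331) and without siFOXA1 replicate 2 (−1.30, adjusted p 0.0168), within a range of 0.0168 to 0.198 over the alternatives. With DESeq2 (adjusted p 0.0425), with no filter on low counts (0.0493) and in the fit of all 12 libraries (0.0253) it was called as well. In VCaP it was at 0.135, 0.259 and 0.191 CPM in NSI and at 0.040, 0.040 and 0.038 CPM in siFOXA1, below the filter on low counts. Fitted without that filter, its log2 fold change was −2.25 (SE 0.54, adjusted p 0.00131).

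MAX, a dimer partner shared by the other members (ENSG00000125952.18_3, chromosome 14, 65472892 to 65569408, minus strand), rose in VCaP only slightly but very evenly. It was at 28.8, 27.9 and 28.5 CPM in VCaP NSI and at 36.2, 36.0 and 36.2 CPM in VCaP siFOXA1, with no overlap. The siFOXA1 level was 127% of NSI (log2 fold change 0.35, SE 0.05, adjusted p 0.000485). In PC3 it was at 104, 97.8 and 104 CPM in NSI and at 90.2, 101 and 94.0 CPM in siFOXA1. Those groups overlapped, and the log2 fold change was −0.10 with a 95% interval of −0.29 to 0.09 (adjusted p 0.415). The interaction was 0.43 (SE 0.10, adjusted p 0.00576), called under all 20 alternatives.

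MXI1 (also called MXD2), a repressor of the MXD family (ENSG00000119950.20_5, chromosome 10, 111967363 to 112047123, plus strand), showed the second largest called fall in PC3. It was at 81.7, 61.8 and 79.8 CPM in PC3 NSI and at 37.6, 34.3 and 39.0 CPM in PC3 siFOXA1. No libraries overlapped, and the level fell to 49.6% of NSI (log2 fold change −1.01, SE 0.12, adjusted p 0.000623). The call held under all 15 alternatives. In PC3, where strand was not used, reads from bases shared with RP11-549L6.3, a gene on the opposite strand that overlaps 5.06% of the exon bases of MXI1, cannot be told apart. RP11-549L6.3 was at 3.11 CPM in NSI and 1.77 CPM in siFOXA1 (log2 fold change −0.81, adjusted p 0.0257), a call that ended without NSI replicate 1 or 3 or siFOXA1 replicate 1 or 2 (adjusted p 0.0642 to 0.0965).

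In VCaP 1 library lay apart from the rest for MXI1. NSI libraries were at 13.7, 13.3 and 16.2 CPM and siFOXA1 libraries at 10.8, 11.6 and 20.05 CPM. The siFOXA1 group lay on both sides of the NSI group, with replicate 3 high. With all libraries the log2 fold change was −0.02 (SE 0.21, adjusted p 0.944), and without siFOXA1 replicate 3 it was −0.36 (adjusted p 0.0234, the lowest over the alternatives, which reached 1). It was 0.07 without NSI replicate 3, 0.13 without siFOXA1 replicate 1 and 0.10 without siFOXA1 replicate 2. The interaction of 0.97 (SE 0.26, adjusted p 0.0144) was called under all 20 alternatives, the smallest value being 0.63.

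The promoter windows of the members were searched for letters known from MAX dimers and from forkhead factors, on both strands: the E-box CACGTG and the forkhead letters TGTTTAC and TATTTAC. The windows run from 250 bases before to 50 after each RefSeq start site (GRCh38.p14), and the 9 members other than MYC had at least 1, giving 14 windows. The promoter of MYC was not searched. TGTTTAC was found in 2 of the 3 windows of MXI1 and in no window of the other 8 members searched, and 3.42% of all 35116 windows held it. TATTTAC was in none of the 14, against 2.67% of all windows. The E-box was in the windows of MXD4 and MNT, against 7.26% of all windows. The windows of the repressors MXD1 and MXD3 held no match and are not shown. The 4 windows with a match are shown, 2 of MXI1 and those of MXD4 and MNT, all repressors of the network. They are printed 5′ to 3′ on the gene's strand, with the matching letters in capitals, read on the opposite strand in the second MXI1 window. Each of these windows held 1 of the 3 kinds of letters, so no matches overlapped, and a match is a description of letters and not a binding site.
MXI1 chr10:110209981-110210280, plus strand: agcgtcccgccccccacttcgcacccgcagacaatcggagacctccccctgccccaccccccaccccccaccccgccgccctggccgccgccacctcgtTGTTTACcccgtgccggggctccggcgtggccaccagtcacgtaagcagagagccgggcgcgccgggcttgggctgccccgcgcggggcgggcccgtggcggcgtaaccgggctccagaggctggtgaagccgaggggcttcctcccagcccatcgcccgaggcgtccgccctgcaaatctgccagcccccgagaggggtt
MXI1 chr10:110225746-110226045, plus strand: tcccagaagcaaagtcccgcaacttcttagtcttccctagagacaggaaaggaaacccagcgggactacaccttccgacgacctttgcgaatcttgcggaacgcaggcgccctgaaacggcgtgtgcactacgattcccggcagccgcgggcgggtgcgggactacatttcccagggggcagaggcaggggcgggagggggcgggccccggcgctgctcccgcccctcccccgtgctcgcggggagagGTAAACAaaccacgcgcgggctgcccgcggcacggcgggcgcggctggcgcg
MXD4 chr4:2262060-2262359, minus strand: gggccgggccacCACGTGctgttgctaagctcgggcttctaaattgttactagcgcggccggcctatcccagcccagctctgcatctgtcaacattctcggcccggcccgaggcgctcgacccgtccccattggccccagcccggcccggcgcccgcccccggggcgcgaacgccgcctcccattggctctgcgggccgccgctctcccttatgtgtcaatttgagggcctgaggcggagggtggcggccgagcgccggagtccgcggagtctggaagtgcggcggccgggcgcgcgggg
MNT chr17:2401011-2401310, minus strand: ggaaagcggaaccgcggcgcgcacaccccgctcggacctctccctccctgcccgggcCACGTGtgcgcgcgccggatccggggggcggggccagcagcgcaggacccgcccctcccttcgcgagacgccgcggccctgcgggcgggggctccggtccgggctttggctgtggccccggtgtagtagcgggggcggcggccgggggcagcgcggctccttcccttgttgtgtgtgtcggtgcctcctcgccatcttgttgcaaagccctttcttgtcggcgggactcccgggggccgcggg

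MXD4, a repressor found in many resting cells (ENSG00000123933.16_3, chromosome 4, 2249159 to 2264021, minus strand, GRCh37), fell in PC3. It was at 119.5, 132 and 121 CPM in PC3 NSI and at 86.7, 103 and 82.6 CPM in PC3 siFOXA1, with no overlap (log2 fold change −0.46, SE 0.10, adjusted p 0.0124). Without siFOXA1 replicate 1 it was −0.40 (adjusted p 0.0886) and without siFOXA1 replicate 3 −0.39 (adjusted p 0.0531), where the alternatives spanned 0.000486 to 0.0886. VCaP libraries were at 37.3, 31.0 and 31.0 CPM in NSI and at 29.2, 29.2 and 32.0 CPM in siFOXA1. The VCaP groups overlapped, and the log2 fold change was −0.14 with a 95% interval of −0.32 to 0.05 (adjusted p 0.218).

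MXD3, a member of the family linked to dividing cells (ENSG00000213347.10_3, chromosome 5, 176732501 to 176739758, minus strand), was lower in both lines by about the same amount. The PC3 libraries were at 91.4, 120.5 and 103 CPM in NSI and at 69.4, 90.4 and 77.5 CPM in siFOXA1. The groups met closely without overlapping, and the log2 fold change of −0.41 (SE 0.13, adjusted p 0.0488) was just past the threshold. The call ended without NSI replicate 2 (−0.25) or 3 (−0.43), without siFOXA1 replicate 1 (−0.30) or 3 (−0.39), and with 3 other scalings or another rounding rule for the counts, and its adjusted p spanned 0.000547 to 0.24. In VCaP it was at 19.9, 19.1 and 18.6 CPM in NSI and at 15.2, 14.0 and 12.3 CPM in siFOXA1. Those groups stood apart, and the fall was called under all 15 alternatives (log2 fold change −0.48, SE 0.09, adjusted p 0.00166). The interaction was −0.08 with a 95% interval of −0.43 to 0.26 (adjusted p 0.803).

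The end of MXD3 overlaps PRELID1, a mitochondrial lipid transfer gene on the opposite strand, over 22.2% of the exon bases of MXD3. PRELID1 was more abundant than MXD3 in all groups. In VCaP its level dropped, with 133 ± 12.6 CPM in NSI and 44.4 ± 1.62 CPM in siFOXA1 (log2 fold change −1.58, SE 0.08, adjusted p 7.47e-07). In PC3, where strand was not used, the means were 170.5 ± 19.7 CPM in NSI and 136 ± 23.7 CPM in siFOXA1 (SD, n = 3 each), and PRELID1 was not called (−0.33, adjusted p 0.108), except with the replicate number as a block (−0.34, adjusted p 0.00252) and without siFOXA1 replicate 2 (−0.48, adjusted p 0.0217; range 0.00252 to 0.409). The part of the shared bases in the PC3 value of MXD3 was not tested.

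MXD1, the MAD repressor that rises when cells differentiate (ENSG00000059728.10_3, chromosome 2, 70142173 to 70170077, plus strand), was not called in either line. In the PC3 libraries its level was 62.9, 38.6 and 62.5 CPM for NSI and 40.8, 34.8 and 42.6 CPM in siFOXA1. The groups overlapped through NSI replicate 2, the lowest of its group. The log2 fold change was −0.47 (SE 0.18, adjusted p 0.085), and it was called without that library (−0.63, adjusted p 0.00296) and with the replicate number as a block (−0.44, adjusted p 0.00422, range 0.00296 to 0.242). With no filter on low counts it was called too (−0.48, adjusted p 0.0157). In VCaP it was at 5.97, 5.88 and 5.68 CPM in NSI and at 6.11, 6.004 and 10.8 CPM in siFOXA1. The first and second siFOXA1 libraries lay just above the NSI group and replicate 3 far above it, and the log2 fold change was 0.39 (SE 0.21, adjusted p 0.158). The interaction was 0.84 (SE 0.30, adjusted p 0.055), called without PC3 NSI replicate 2 (1.00), without VCaP siFOXA1 replicate 1 (0.98) or 2 (0.99), with adjusted p from 0.00369 to 0.182 over the alternatives. DESeq2 (adjusted p 0.0421), the fit with no filter (0.00369) and the replicate block (0.0092) also called it.

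MNT, the repressor present in both resting and dividing cells (ENSG00000070444.14_2, chromosome 17, 2287354 to 2304412, minus strand), was not called in either line. PC3 libraries held 54.4, 44.6 and 58.1 CPM in NSI and at 46.8, 46.1 and 43.0 CPM in siFOXA1, with overlap. The log2 fold change was −0.21 (adjusted p 0.187), and it was called only without NSI replicate 2 (−0.27, adjusted p 0.041, range 0.041 to 0.477). In VCaP it was at 22.7, 21.1 and 24.4 CPM in NSI and at 24.4, 28.9 and 25.3 CPM in siFOXA1. The lowest siFOXA1 library was just above the highest NSI library, and the log2 fold change was 0.21 (SE 0.08, adjusted p 0.0719). It was called without NSI replicate 3 (0.26, adjusted p 0.0461) and with upper-quartile scaling (adjusted p 0.0306; range 0.0306 to 0.275). The interaction was 0.40 (SE 0.15, adjusted p 0.0641), called without PC3 NSI replicate 2 (0.47, adjusted p 0.0121, range 0.0121 to 0.265) and with the replicate number as a block (0.39, adjusted p 0.0403). In PC3 the antisense gene RP1-59D14.1, which shares 21.3% of the exon bases of MNT, was at 8.58 CPM in NSI and 7.01 CPM in siFOXA1.

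MGA (ENSG00000174197.16_1, chromosome 15, 41952610 to 42065279, plus strand) rose in VCaP, where its RPKM was second to that of MYC. It was at 219.9, 232 and 229.6 CPM in VCaP NSI and at 261, 273 and 284 CPM in VCaP siFOXA1. All siFOXA1 libraries lay above all NSI libraries. The rise was 0.27 on the log2 scale (SE 0.06, adjusted p 0.00795), and the call ended only in the fit of all 12 libraries (0.29, adjusted p 0.125, range 0.00102 to 0.125). In PC3 it was at 35.8, 25.2 and 32.0 CPM in NSI and at 36.2, 26.0 and 35.4 CPM in siFOXA1. Those groups overlapped almost wholly, with a log2 fold change of 0.07 and a 95% interval of −0.30 to 0.44 (adjusted p 0.769), and of −0.01 without NSI replicate 2. The interaction was 0.18 (95% interval −0.23 to 0.58, adjusted p 0.578).

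**Figure D2:**
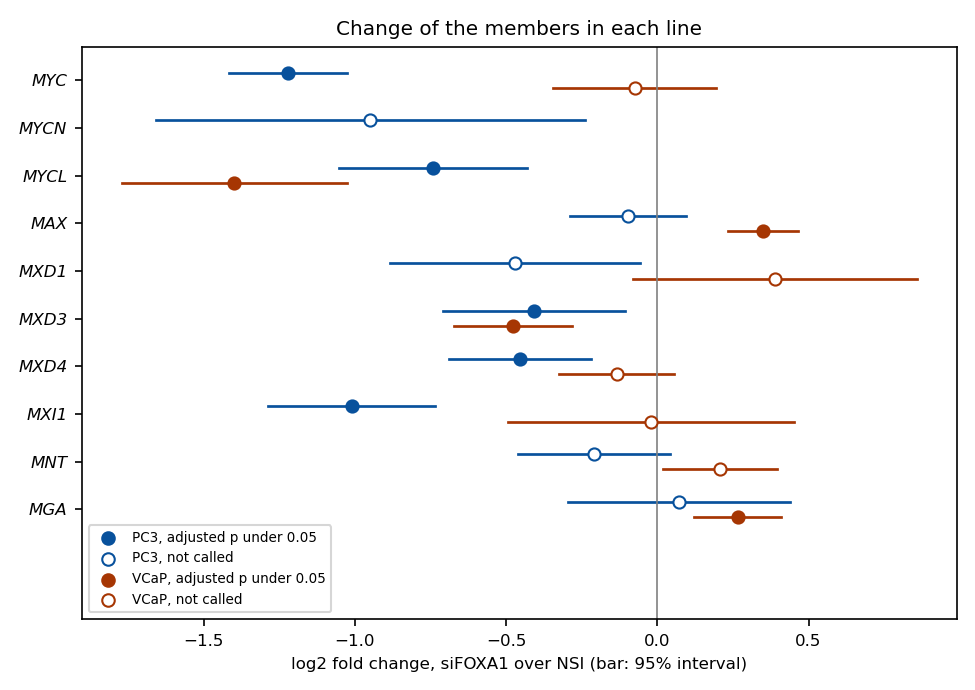
Log2 fold change of each member, siFOXA1 over NSI, in PC3 (blue) and VCaP (brown). Bars are 95% intervals from edgeR, filled points have an adjusted p under 0.05, and MYCN has no VCaP value. MYC and MXI1 lie near −1 in PC3 and near 0 in VCaP, and MYCL lies below 0 in both.

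Levels per length were compared within each line, in RPKM, which divides by the summed exon length of the deposited tables. In PC3 NSI the order was MYC (284 ± 8.61), MXD3 (31.9 ± 4.44), MXD4 (30.6 ± 1.62), MAX (24.8 ± 0.884), MXI1 (18.4 ± 2.71), MNT (10.5 ± 1.39), MXD1 (9.73 ± 2.48), MGA (2.04 ± 0.352), MYCL (0.451 ± 0.014) and MYCN (0.119 ± 0.0026) (mean ± SD, n = 3). MXD3 and MXD4, and likewise MNT and MXD1, did not differ beyond their spread. In VCaP NSI it was MYC (85.1 ± 14.1), MGA (15.0 ± 0.415), MXD4 (8.16 ± 0.902), MAX (6.92 ± 0.111), MXD3 (5.83 ± 0.195), MNT (4.55 ± 0.330), MXI1 (3.55 ± 0.386), MYCL (1.11 ± 0.232), MXD1 (1.04 ± 0.026) and MYCN (0.075 ± 0.024). There MYCL and MXD1 did not differ beyond their spread. MGA stood second in VCaP and eighth in PC3, in libraries of different kits.

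The make-up of the 9 MAX partners was described as a share of their summed RPKM, with no test. In PC3 the MYC family (MYC, MYCN and MYCL) held 73.1%, 73.5% and 73.5% of it in NSI and 61.8%, 62.3% and 62.8% in siFOXA1. The groups stood apart, with SDs of 0.220 and 0.519 percentage points. The share of the MXD repressors (MXD1, MXD3, MXD4 and MXI1) went from 23.4% ± 0.361 to 31.9% ± 0.452, although 3 of these 4 were called lower. MYC fell further than each of them (log2 fold change −1.22, against −0.47, −0.41, −0.46 and −1.01 in that order). In VCaP the MYC family held 67.2%, 67.3% and 72.8% in NSI and 65.8%, 68.1% and 67.5% in siFOXA1, which overlapped. MGA held 12.1% ± 1.34 and 14.9% ± 0.655 of the VCaP sum, and 0.527% ± 0.095 and 1.10% ± 0.246 of the PC3 sum.

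The summed RPKM of the partners over that of MAX fell in both lines without overlap. In PC3 the ratio was 15.0, 16.1 and 15.7 in NSI and 8.43, 8.41 and 8.46 in siFOXA1. In VCaP it was 16.8, 16.8 and 20.3 in NSI and 12.5, 14.0 and 14.7 in siFOXA1. In PC3 the sum of the partners changed, from 387 ± 10.8 to 196 ± 11.4 RPKM, while in VCaP the sum was 124 ± 14.6 and 121 ± 10.1 RPKM and MAX was the part that rose.

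**Figure D3:**
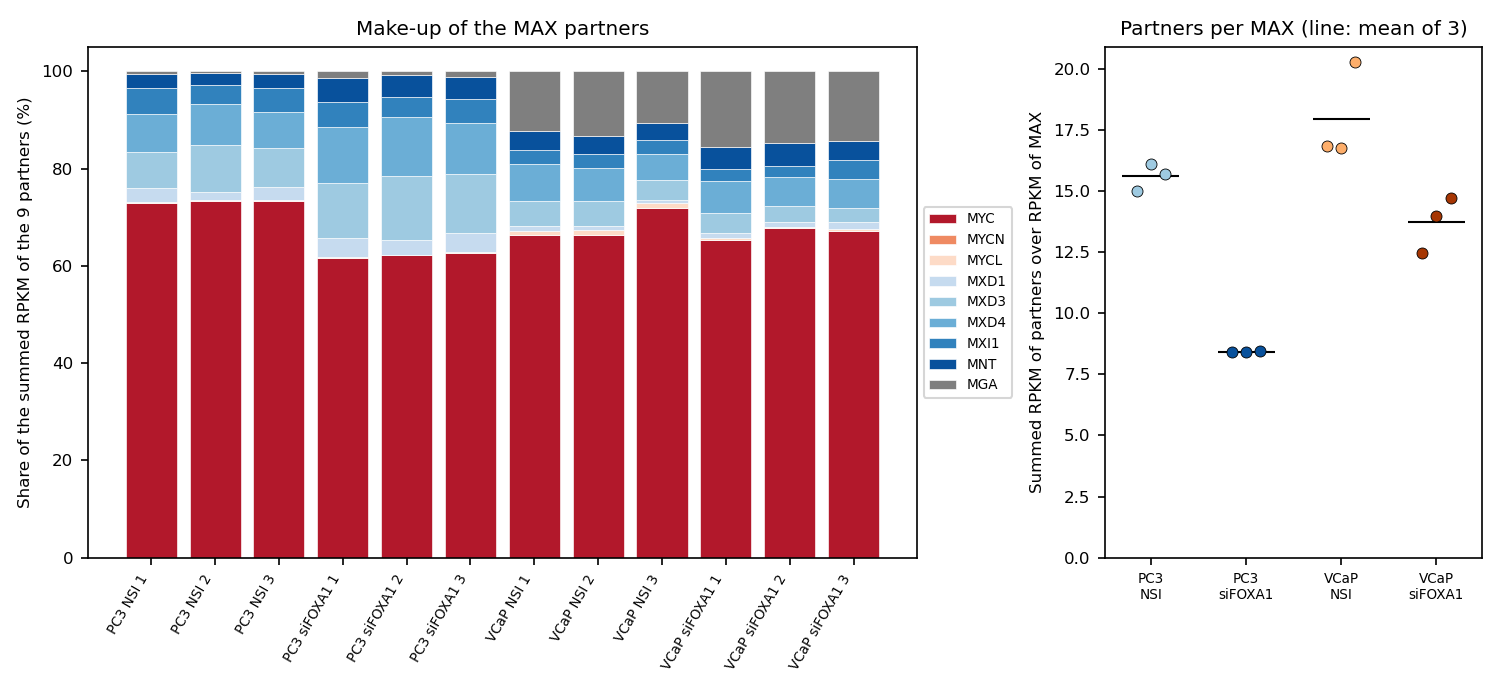
Left, share of each of the 9 MAX partners in their summed RPKM, 1 bar per library. Right, summed RPKM of the partners over the RPKM of MAX, 1 point per library with a line at the mean of 3. MYC takes about 73% of the bar in PC3 NSI and 62% in PC3 siFOXA1, and the ratio is lower in siFOXA1 in both lines.

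A parallel branch of the network uses MLX in place of MAX, with the glucose-sensing partners MLXIP (MondoA) and MLXIPL (ChREBP). MLXIP moved in opposite directions in the 2 lines. It was at 101, 82.2 and 91.0 CPM in PC3 NSI and at 74.5, 65.3 and 76.0 CPM in PC3 siFOXA1 (log2 fold change −0.34, SE 0.11, adjusted p 0.0401), and at 50.03, 51.8 and 50.9 CPM in VCaP NSI and at 58.4, 61.3 and 79.2 CPM in VCaP siFOXA1 (0.38, SE 0.10, adjusted p 0.0146). Neither line's groups overlapped, and VCaP siFOXA1 replicate 3 was the highest of its group, as for MXD1 and MXI1. The PC3 call ended when any 1 library other than NSI replicate 2 was left out (0.0708 to 0.141), and the VCaP call ended without NSI replicate 1 (0.35, adjusted p 0.0522), but the interaction of 0.71 (SE 0.16, adjusted p 0.00534) was called under all 20 alternatives.

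The other genes of that branch were mostly not called. MLX was not called in PC3 (−0.04, 95% interval −0.24 to 0.16) or VCaP (0.02, −0.15 to 0.19), and neither was MLXIPL (−0.47, adjusted p 0.125, and 0.29, adjusted p 0.338). PSMC3IP, on the opposite strand, overlaps 29.7% of the exon bases of MLX, which PC3 counting did not separate, so the PC3 value of MLX is uncertain. With the replicate number as a block MLXIPL was called in PC3 (−0.48, adjusted p 0.00614), as it was without siFOXA1 replicate 2 (−0.70, adjusted p 0.0318, range 0.00614 to 0.391). TXNIP, a glucose-uptake inhibitor induced by MondoA, fell in VCaP from 65.5 ± 2.02 to 49.5 ± 5.58 CPM (log2 fold change −0.40, SE 0.08, adjusted p 0.0031) and was at 308 ± 18.6 and 316.5 ± 6.35 CPM in PC3 (0.04, adjusted p 0.739). Its interaction was −0.46 (adjusted p 0.0181), and it was not called without VCaP siFOXA1 replicate 2 (−0.37, adjusted p 0.0589, the highest of the alternatives, whose lowest was 0.000865). ARRDC4, a relative of TXNIP, was not called in either line.

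A list of 41 genes known to be induced by MYC was followed in both lines. In PC3, 30 fell, 1 rose and 10 were not called, with a median log2 fold change of −0.43, where 13.9% of all genes tested fell and 13.9% rose. The 30 include CCND2, named because of its value (−2.46, SE 0.62, edgeR adjusted p 0.0197), which was very low in PC3, at a mean of 0.089 CPM. By adjusted p the leading falls were MYBBP1A, a nucleolar protein (−0.73, SE 0.08, adjusted p 0.000376), DKC1, the pseudouridine synthase of ribosomal RNA (−0.63, SE 0.08, adjusted p 0.000667), and HSPD1, the mitochondrial chaperonin (−0.57, SE 0.08, adjusted p 0.00111). The gene that rose was HK2, a hexokinase (0.67, SE 0.17, adjusted p 0.0185), which was not called without siFOXA1 replicate 1 (0.63) or 3 (0.65). Without siFOXA1 replicate 1 the count of called targets was 14, and without siFOXA1 replicate 3 it was 19, all lower in both cases.

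In VCaP, where MYC itself was not called, 19 of the same 41 fell, 4 rose and 18 were not called, with a median of −0.20, where 23.3% of all genes tested fell and 22.5% rose. PTMA, which encodes the chromatin protein prothymosin alpha, went from 383 to 156 CPM (log2 fold change −1.30, SE 0.09, adjusted p 3.49e-06), ODC1, the first enzyme of polyamine synthesis, changed by −0.80 (SE 0.07, adjusted p 1.9e-05), and EIF4A1, a translation factor, by −0.49 (SE 0.07, adjusted p 0.000265). PTMA, like HSPD1, has 4 named pseudogenes in the tables and EIF4A1 shares all its exon bases with a readthrough gene, so the values of all 3 are uncertain. SLC3A2, the heavy chain of an amino acid transporter, rose (0.66, SE 0.07, adjusted p 6.23e-05), as did PPAT, an enzyme of purine synthesis (0.34, SE 0.08, adjusted p 0.00718). The other two that rose, SLC7A5 (0.231 to 1.05 CPM) and CCND2 (0.0348 to 1.11 CPM), were very low in VCaP and are named because of their values.

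The interaction was called for 12 of the 41 targets, 10 more positive and 2 more negative in VCaP, where it was called for 22.1% of all genes. SLC3A2 (0.99, adjusted p 8.95e-05) and PPAT (0.87, adjusted p 0.00027) were among the former and PTMA (−0.84, adjusted p 0.00106) among the latter, and these 3 were called under all 20 alternatives. The E-box CACGTG was in the promoter window of 19 of the 33 targets that had one outside chromosome 8, or 57.6%, and in 19 of their 43 windows, or 44.2%, against 7.26% of all windows.

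**Figure D4:**
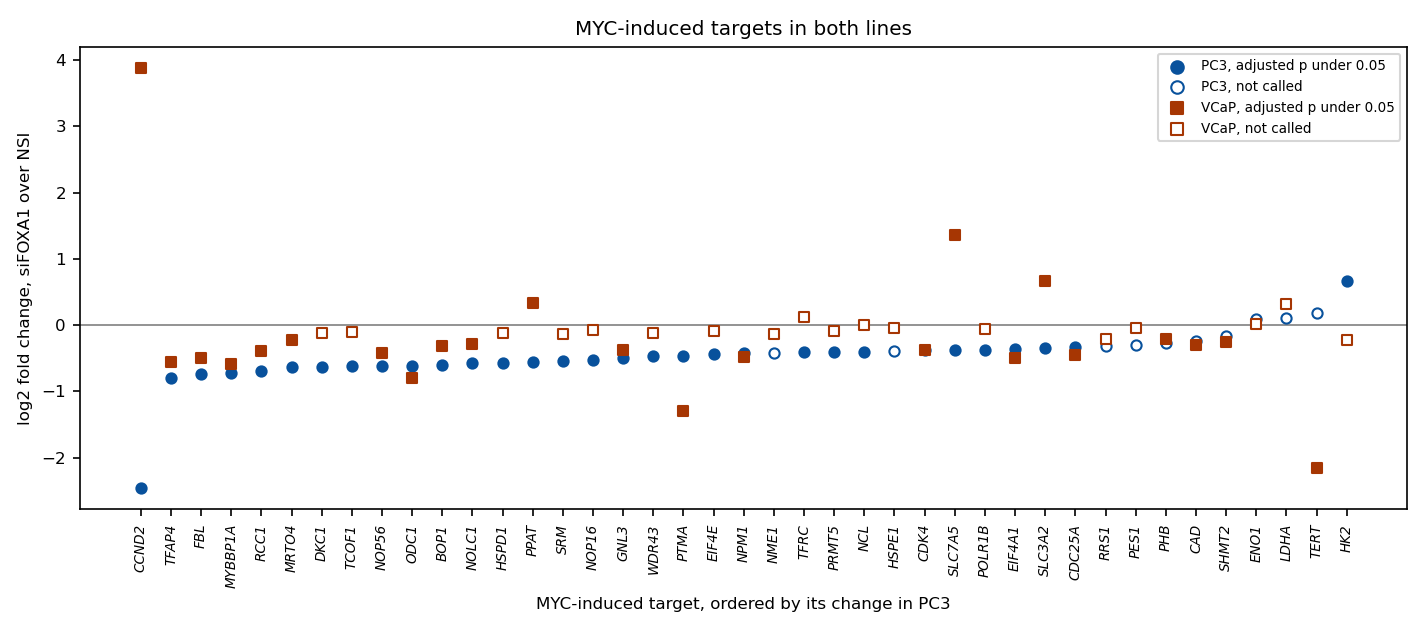
Log2 fold change, siFOXA1 over NSI, of 41 MYC-induced targets ordered by their PC3 value, for PC3 (circles) and VCaP (squares), filled where the adjusted p is under 0.05. Most circles (37 of 41) and most squares (34 of 41) lie below 0, around medians of −0.43 and −0.20.

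Other gene groups moved beside these counts, and their part in them was not tested. Over all genes tested, 13.9% fell and 13.9% rose in PC3 (median log2 fold change −0.01). In VCaP 23.3% of all genes fell and 22.5% rose (median 0.02). Of 22 cell cycle genes, 12 fell and none rose in PC3 (median −0.49), and 22 fell in VCaP (median −0.79). PLK1, a mitotic kinase, changed by −1.02 in PC3 and RRM2, a ribonucleotide reductase subunit, by −2.29 in VCaP. Of 22 interferon-induced genes, all 22 rose in PC3 (median 3.54), where their summed level went from 497 to 656 RPKM in NSI to 3700.0 to 4817 RPKM in siFOXA1. In VCaP 10 of the 16 tested rose and 2 fell (median 0.75), with sums of 47.3 to 49.5 and 48.6 to 58.5 RPKM.

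Of the 10 listed genes known to be repressed by MYC, 1 fell, none rose and 9 were not called in PC3. Over all genes tested there, 13.9% fell and 13.9% rose. CDKN2B, the inhibitor p15, was the one that fell (−0.70, SE 0.11, adjusted p 0.00283), from 314 to 193 CPM. In VCaP 5 rose and 1 fell, where 22.5% of all genes tested rose and 23.3% fell. THBS1, an inhibitor of angiogenesis, rose from 1059 to 6889 CPM (log2 fold change 2.701, SE 0.14, adjusted p 9.14e-07), CDKN1A, the inhibitor p21, from 33.8 to 105 CPM (1.63, SE 0.16, adjusted p 3.92e-05) and CDKN2B from 0.780 to 2.50 CPM (1.68, SE 0.15, adjusted p 1.99e-05). NDRG1 (0.53) and GADD45A (0.44) also rose, and are named because of their values. CEBPA fell in VCaP (−0.33, adjusted p 0.0316) and was not called without NSI replicate 1 or 3 or siFOXA1 replicate 1 or 2, with adjusted p from 0.0575 to 0.104.

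Among the cofactors that the members recruit, calls in PC3 were mostly falls, and VCaP had both directions. The counts of these lists stand beside 27.7% of all genes called in PC3 and 45.8% in VCaP, and the PC3 counts of the coactivators, the stability regulators and the SIN3 subunits lie near that share. Of the MYC coactivators, 4 of 13 tested fell and none rose in PC3, and 6 of 14 fell and 2 rose in VCaP. WDR5, which anchors MYC to chromatin, fell by 0.50 on the log2 scale in PC3 (adjusted p 0.00337) and by 0.59 in VCaP (adjusted p 7.91e-05), and KAT2A, an acetyltransferase, fell in VCaP (−0.49, adjusted p 0.000461) and was at 0 to 0.055 CPM in PC3. RUVBL1 fell in both lines (−0.31 and −0.44), and EP400 rose in VCaP (0.34). EEFSEC and SEC61A1, on the opposite strand, overlap 18.25% of the exon bases of RUVBL1, which PC3 counting did not separate. SMARCB1, also called in PC3 (−0.35, adjusted p 0.0488), is named because of its value, and 55.1% of its exon bases overlap DERL3 on the opposite strand, which PC3 counting did not separate. Genes named because of their values were not run under the alternatives. The PC3 call of RUVBL1 ended without NSI replicate 1 or 3 or siFOXA1 replicate 1 or 3 (adjusted p 0.0569 to 0.11), and the VCaP call of EP400 ended without NSI replicate 1 or 3 or siFOXA1 replicate 3 (0.0612 to 0.0934).

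Among 8 regulators of MYC protein stability, AURKA, the kinase that shields MYCN from degradation, fell by 1.11 on the log2 scale in PC3 (adjusted p 3.02e-05) and by 1.01 in VCaP (adjusted p 5.16e-05). USP28, a deubiquitinase, rose in both lines (0.52, adjusted p 0.0111, and 0.37, adjusted p 0.00106). These were the 2 called in PC3. In VCaP 4 rose and 3 fell: FBXW7, the ubiquitin ligase that marks MYC (0.34, adjusted p 0.00253), TRPC4AP (0.27) and, named because of its value, GSK3B (0.50) also rose, and the ligases HUWE1 (−0.30) and SKP2 (−0.17) fell, as did AURKA. The call of SKP2 ended without any library but siFOXA1 replicate 1 (adjusted p 0.055 to 0.13).

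Of the 15 subunits of the SIN3 complex, through which MXD proteins repress, 3 fell and none rose in PC3: HDAC1 (−0.48, adjusted p 0.00384), HDAC2 (−0.38, adjusted p 0.012) and ING1 (−0.52, adjusted p 0.018). In VCaP 7 fell and 5 rose. RBBP4 (−0.62), SAP30 (−1.02) and HDAC1 (−0.38) led the falls, and ARID4A (0.41), BRMS1 (0.32) and RBBP7 (0.26) the rises, with ARID4B and SIN3B named because of their values (0.42 and 0.20). The PRC1.6 partners of MGA numbered 10. In PC3 4 fell and none rose, namely CBX3 (−0.48), YAF2 (−0.50), E2F6 (−0.34) and, named because of its value, RYBP (−0.48). In VCaP 5 fell, led by CBX3 (−0.56), PCGF6 (−1.05) and TFDP1 (−0.55) with CBX1 (−0.28) and RNF2 (−0.34) named because of their values, and YAF2 (0.39) and L3MBTL2 (0.19) rose. In PC3 the calls of HDAC2 (adjusted p 0.0536 to 0.0889) and ING1 (0.0589 to 0.0938) ended without NSI replicate 3 or siFOXA1 replicate 1 or 3, that of E2F6 also without NSI replicate 1 (0.0578 to 0.0796 over the 4), and that of CBX3 without siFOXA1 replicate 1 (0.0585). In VCaP the call of L3MBTL2 ended without NSI replicate 1 or 2 or siFOXA1 replicate 1 or 2 (0.056 to 0.107).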

How the data were processed

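Per the file headers, the values of the 12 deposited tables are estimated counts per gene, also called expected counts, made with featureCounts, which divided reads that mapped to several places or genes of the GENCODE v28lift37 basic annotation (GRCh37). Those headers show that strand was ignored for PC3 and read in reverse for VCaP. The submitters' processing notes name STAR 2.7.3a and Subread 2.0.0. Counts were rounded to the nearest whole number, ties upward, a choice made after the data were seen, and ties to the even number were an alternative. Each line was fitted with edgeR 4.0.16 (filterByExpr, TMM, two-sided quasi-likelihood test, Benjamini-Hochberg over all genes tested), and the interaction over 12 libraries. DESeq2 1.42.0 was an alternative. The fit was tested on simulated data. Fold changes include a small prior count. CPM and RPKM are TMM-scaled.

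Replicate numbers come from the titles. Deviations of same-numbered libraries correlated at 0.411, 0.569 and 0.205 in PC3, against means of −0.095, −0.399 and −0.05 with the other numbers. In VCaP they correlated at 0.092, 0.036 and 0.35, against −0.014, −0.002 and −0.215. The same-numbered values were above 0 in both lines, though only slightly for VCaP replicates 1 and 2. Deviations were taken from the mean of the 3 libraries of a group, so they sum to 0 within it. A same-numbered value above 0 therefore pulls the values with the other numbers below 0, and these are not a separate comparison. The main fits held no term for the replicate number, and the block was an alternative. Between replicates of a group, chi-square per degree of freedom was 9.77 to 141, so none was a copy.

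The members and lists were chosen with earlier results of these data known. Named genes were the members, FOXA1, the MLX branch, TXNIP, ARRDC4, genes overlapping a member, and per list and line up to 3 called genes in each direction with the smallest adjusted p and at least 1 CPM. Some genes that the rule named appear only in counts or in the closing section. The endothelial marker PECAM1 was not analysed here, and single results of some listed genes are not reported here.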

Additional observations from a re-analysis of the deposited data

Results flagged for a closer look

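The response to siFOXA1 differed between VCaP and PC3, by the edgeR interaction test with an adjusted p under 0.05, for the genes given here. All values are the VCaP effect minus the PC3 effect on the log2 scale, with 3 libraries in each of the 4 groups. The line cannot be told apart from dose, medium, kit, use of strand and the depth of the FOXA1 knockdown. The difference was −1.94 for FOXA1 itself, 1.13 for MYC, −0.67 for MYCL, 0.43 for MAX and 0.97 for MXI1. In the MLX branch it was 0.71 for MLXIP, and it was −0.46 for TXNIP. PRELID1, which overlaps MXD3, had −1.27.

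Among the cofactors the difference was 0.48 for FBXW7, −0.38 for SKP2, −0.75 for RBBP4, −1.27 for SAP30, 0.56 for BRMS1, −0.84 for PCGF6 and 0.87 for YAF2. KAT2A had 3.21, but it was at 0 to 0.055 CPM in PC3, so that fitted value depends on the prior count. The call of FBXW7 ended without PC3 NSI replicate 1 (0.41) or 3 (0.39) or PC3 siFOXA1 replicate 2 (0.33). BRMS1 lost its call without any 1 of 9 libraries, all but PC3 NSI replicate 1, PC3 siFOXA1 replicate 2 and VCaP NSI replicate 3 (adjusted p 0.0512 to 0.0961).

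Of the MYC-induced targets, DKC1 had 0.49, HSPD1 0.43, PPAT 0.87, SLC3A2 0.99 and PTMA −0.84. DKC1 lost its call without PC3 NSI replicate 1 or 3, PC3 siFOXA1 replicate 1 or 2, VCaP NSI replicate 1 or 2 or VCaP siFOXA1 replicate 3 (adjusted p 0.0523 to 0.0658). HSPD1, which has 4 named pseudogenes in the tables, lost its call without any 1 of 9 libraries, all but PC3 NSI replicate 2, VCaP NSI replicate 3 and VCaP siFOXA1 replicate 1 (adjusted p 0.0578 to 0.105). Of the MYC-repressed targets, CDKN1A had 1.42, CDKN2B 2.36 and THBS1 2.7. The cell cycle genes MCM2, RRM2 and TYMS had −0.9, −1.86 and −1.02. The interferon-induced genes IFIT2, IFIT3, ISG15, OAS1, OAS3 and IFI44 had −1.78, −2.04, −3.5, −1.59, −4.31 and −0.96.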

How the results depend on the processing

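The members called numbered 5 in PC3, and 3 at an adjusted p under 0.01 or as the lowest of 3 to 6 when 1 library was left out. They numbered 4 to 5 in VCaP without 1 library and 3 to 6 in the interaction. Genes called in PC3 numbered 3588 at an adjusted p under 0.01, 11333 with the replicate number as a block, and 3963 to 7628 without 1 library, of which 61.5% were higher without siFOXA1 replicate 1. With library size alone as the scaling, 64.3% of the PC3 calls were higher, against 3675 of 7344, and 40.5% of the interaction calls, against 50.1%. The MYC-induced targets called in PC3 numbered 14 to 30 without 1 library. Same-numbered VCaP libraries correlated only weakly for replicates 1 and 2 (0.092 and 0.036) and at 0.35 for replicate 3. With the block 7 members were called in the interaction, MXD1 (0.78), MXD4 (0.31) and MNT (0.39) in addition, and no VCaP member changed its call. MYC, MYCL, MAX and MXI1 kept their calls within each line that had one under all 15 alternatives. MYCN was at or below 0.32 CPM in all libraries, and the filter on low counts left it out of the VCaP test.

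Values near 0 changed sign, and the causes were not tested. With upper-quartile scaling they were 0.0218 for MLX, 0.0108 for HUWE1, 0.0255 for L3MBTL2 and 0.0444 for THBS1 in PC3, and 0.0266 for MXI1, 0.0404 for ARRDC4 and 0.0344 for E2F6 in VCaP. With library size alone they were 0.0502 for MLX, 0.0402 for HUWE1, 0.0257 for ARID4A, 0.0528 for L3MBTL2 and 0.0735 for THBS1 in PC3, and −0.0412 for MLX, −0.0108 for HDAC1 and −0.0528 for CEBPA in the interaction. In the fit of all 12 libraries they were 0.0032 for MLX, 0.0063 for L3MBTL2 and 0.0256 for THBS1 in PC3, and 0.0044 for MXI1, 0.0189 for ARRDC4 and 0.0125 for E2F6 in VCaP. With ties rounded to the even number THBS1 was 0.0148 in PC3.

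Leaving out 1 library at a time gave these ranges in PC3: MGA −0.0121 to 0.2089, MLX −0.0767 to 0.0628, RP11-840I19.3 −0.0057 to 0.1061, RP11-107F6.3 −0.4086 to 0.175, HUWE1 −0.1787 to 0.0942, ARID4A −0.1559 to 0.0698, RBBP7 −0.0503 to 0.1607, L3MBTL2 −0.085 to 0.0718, THBS1 −0.0755 to 0.0683 and MCM2 −0.1763 to 0.0885. In VCaP they were MYC −0.1614 to 0.066, MXI1 −0.3608 to 0.1334, MLX −0.0335 to 0.0939, ARRDC4 −0.0562 to 0.0486, E2F6 −0.0568 to 0.0041 and HK2 −0.977 to 0.0416. In the interaction they were MGA −0.0408 to 0.2629, MLX −0.0486 to 0.1169, ARRDC4 −0.0061 to 0.2054, AURKA −0.0173 to 0.2078, CCNB1 −0.1433 to 0.1044, CEBPA −0.1435 to 0.1319, RP11-107F6.3 −1.0852 to 0.4196 and RP11-549L6.3 −2.4233 to 0.7712.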
